A study of Danio rerio with 16 samples.

Results

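The sterol synthesis enzymes described here are 6 zebrafish genes, hmgcs1, mvk, fdps, fdft1, cyp51 and msmo1, whose products act at successive steps between acetyl-CoA and cholesterol. Their members were chosen by gene symbol with earlier results of these same arrays in view, so that the changes reported for them are a description and carry no test. All probe sets annotated with 1 of these symbols alone were taken, which gave 10 probe sets of the 15502 tested, and the 6 genes stand among 8793 named genes. The arrays hold homozygous mutants for the nz171 allele of rad21 (rad21a in current zebrafish names) at 24 hours post fertilisation (hpf), wild types (WT) at 24 hpf, homozygous nz171 mutants at 48 hpf and WT at 48 hpf. Each of these 4 groups had 4 pools, every pool was made of 50 whole embryos freed of the chorion, and the 16 RNA samples were each hybridised to a separate Affymetrix array. rad21a encodes a subunit of cohesin, the complex that encircles DNA, pairs sister chromatids and forms chromatin loops. Because a pool is a mixture of all cells of 50 embryos, fewer cells of a type and less RNA per cell cannot be told apart.

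Cholesterol is made from acetyl-CoA by way of mevalonate, which is turned into the isoprenoid farnesyl diphosphate, joined into squalene, closed into the sterol ring system and then trimmed and reduced. In vertebrates the genes of these steps are switched on together by SREBP transcription factors, which leave the endoplasmic reticulum when sterol is scarce and are held back there by the INSIG proteins when it is plentiful. The pathway also feeds protein prenylation, ubiquinone and dolichol, and early fish embryos draw cholesterol both from this synthesis and from the yolk.

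The labels held for the mutated gene: rad21a read 6.58 to 7.06 on the log2 intensity scale in mutants at 24 hpf and 10.09 to 10.55 in WT at 24 hpf, and 5.92 to 6.72 in mutants at 48 hpf against 10.06 to 10.48 in WT at 48 hpf. Marker genes of neurons, skeletal muscle, erythroid cells, epidermis, lens, glia and yolk or liver were among the genes measured. The 3 arrays least like the others of their group were mutant 48 hpf replicate 4, WT 24 hpf replicate 1 and WT 48 hpf replicate 3, with mean correlations of 0.983, 0.985 and 0.985. How far the 3′ signal of a control gene exceeds its 5′ signal can reflect RNA integrity and labelling. For acta1 this gap was 3.57 to 3.78 log2 units in mutants at 24 hpf, against 3.03 to 3.15 in WT. In mutants at 48 hpf it was 3.39 to 4.08, against 2.41 to 2.81 in WT. The acta1 gap moved with genotype at both times, and its part in the results below was not tested. The same gap for the GAPDH control probe sets overlapped between the genotypes at both times. At 24 hpf the GAPDH gap was 0.43 to 0.60 in mutants and 0.29 to 0.59 in WT. At 48 hpf it was 0.58 to 0.65 in mutants and 0.55 to 0.63 in WT.

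At 48 hpf the brightest probe set of every member was higher in the rad21 mutants than in WT, by between 0.55 and 1.98 on the log2 scale, and at 24 hpf the same probe sets differed by between -0.16 and 0.23. The median log2 change of the 6 genes was 1.15 at 48 hpf, beside 0.03 over all genes, and -0.06 at 24 hpf, beside -0.0048 over all genes. The changes are given below in the order of the pathway, as log2 intensities for replicates 1 to 4 and as differences between group means with the standard error (SE) of a limma fit to all 16 arrays. The fit takes 1 spread per probe set from all 4 groups, so the SE of a probe set is the same at both times. Where the 48 hpf mutants varied more than the other groups, that SE understates the uncertainty at 48 hpf. Where a gene had several probe sets, its value is that of the probe set with the highest mean. Intensities of different probe sets share no scale and are not compared with each other.

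**Figure D1:**
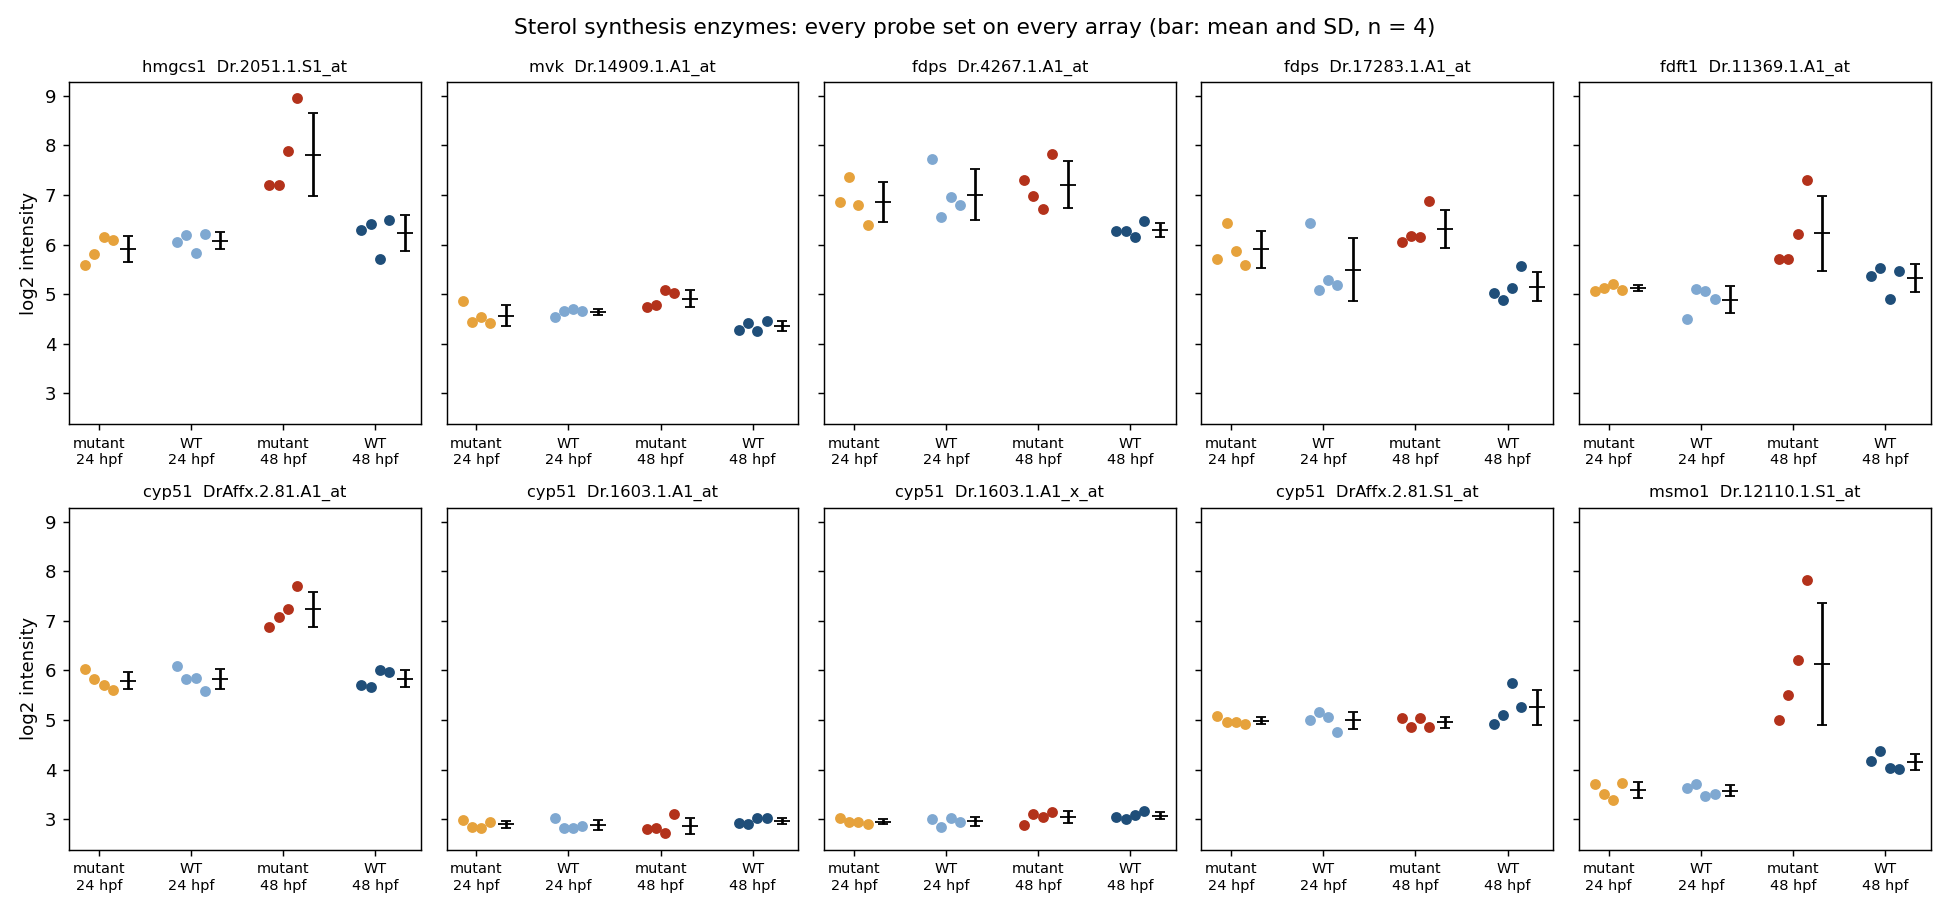
Log2 intensity (vertical axis) of each of the 10 probe sets on every array, in mutants and WT at 24 hpf and then mutants and WT at 48 hpf; points are arrays and bars are the mean with the SD (n = 4). In 7 of the 10 panels all 4 mutant arrays at 48 hpf lie above all 4 WT arrays at 48 hpf, and 3 cyp51 panels show no such gap.

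The first member, hmgcs1, encodes the cytosolic synthase that makes HMG-CoA, the substrate of the rate-limiting reductase. At 24 hpf hmgcs1 read 5.60, 5.82, 6.15 and 6.10 in mutants, against 6.06, 6.18, 5.84 and 6.22 in WT. At 48 hpf hmgcs1 read 7.21, 7.20, 7.89 and 8.96 in mutants, against 6.30, 6.42, 5.70 and 6.49 in WT. The genotypes overlapped at 24 hpf, while at 48 hpf every mutant array was above every WT array, with mutant replicate 4 far above the others and WT replicate 3 lowest. The difference was 1.58 ± 0.29 at 48 hpf, a 3.00-fold higher intensity in mutants, and -0.16 ± 0.29 at 24 hpf (SE, n = 4 per group). Between the times, hmgcs1 moved by 1.90 in mutants and by 0.15 in WT.

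The kinase that phosphorylates mevalonate is encoded by mvk. At 24 hpf mvk read 4.87, 4.44, 4.54 and 4.42 in mutants and 4.55, 4.66, 4.70 and 4.67 in WT. At 48 hpf mvk read 4.73, 4.79, 5.08 and 5.03 in mutants and 4.28, 4.42, 4.27 and 4.46 in WT. The arrays of the genotypes were interleaved at 24 hpf and did not overlap at 48 hpf, where no single array stood apart. The measured log2 difference was 0.55 ± 0.11 at 48 hpf and -0.08 ± 0.11 at 24 hpf. The foreign-sequence control probe sets, which match no zebrafish gene, had a median of 4.66, and mvk was below it on all 4 WT arrays at 48 hpf and on 3 of 4 mutant arrays at 24 hpf. With WT at 48 hpf set to that median, the mutants were 1.19-fold higher. The controls ranged from 2.77 to 7.22, so this fold is not a lower limit. The brightest probe sets of the other members also lay inside that range in WT at 48 hpf, so the same holds for their folds. In WT mvk was lower at 48 than at 24 hpf by 0.29, and in mutants it was higher at 48 hpf by 0.34.

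Farnesyl diphosphate synthase, the product of fdps, makes the isoprenoid from which squalene, prenyl anchors and dolichol branch off. The brighter of its 2 probe sets read 7.30, 6.98, 6.72 and 7.82 in mutants at 48 hpf and 6.27, 6.27, 6.15 and 6.47 in WT at 48 hpf. At 24 hpf it read 6.86, 7.37, 6.81 and 6.40 in mutants and 7.73, 6.55, 6.95 and 6.81 in WT. All mutant arrays were above all WT arrays at 48 hpf, the lowest mutant by a small margin, whereas at 24 hpf the highest array was WT replicate 1. The log2 difference was 0.91 ± 0.25 at 48 hpf (1.88-fold) and -0.15 ± 0.25 at 24 hpf. Between the times, fdps moved by 0.35 in mutants and by -0.72 in WT. Without WT 24 hpf replicate 1 the change in WT was -0.48.

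The second fdps probe set read 6.06, 6.17, 6.15 and 6.87 in mutants at 48 hpf and 5.03, 4.89, 5.12 and 5.57 in WT at 48 hpf. At 24 hpf it read 5.70, 6.44, 5.88 and 5.59 in mutants and 6.43, 5.08, 5.29 and 5.18 in WT. Both fdps probe sets therefore separated the genotypes at 48 hpf, and WT replicate 1 was the highest WT array at 24 hpf in both. The second probe set gave a log2 difference of 1.16 ± 0.27 at 48 hpf (2.23-fold) and of 0.41 ± 0.27 at 24 hpf, and neither 24 hpf difference passed limma's threshold. The brighter probe set gave 0.09 at 24 hpf without WT replicate 1, so its direction at that time rested on single arrays.

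Squalene synthase, encoded by fdft1, commits farnesyl diphosphate to sterols. At 48 hpf fdft1 read 5.70, 5.70, 6.21 and 7.31 in mutants, against 5.37, 5.54, 4.91 and 5.46 in WT. At 24 hpf fdft1 read 5.06, 5.13, 5.21 and 5.09 in mutants, against 4.50, 5.10, 5.07 and 4.90 in WT. Mutant replicates 1 and 2 lay just above the highest WT array at 48 hpf, and the rest of the difference came from mutant replicates 3 and 4. The log2 difference was 0.91 ± 0.26 at 48 hpf (1.88-fold) and 0.23 ± 0.26 at 24 hpf. Without mutant replicate 4 the 48 hpf difference was 0.55, so this array moved it by over 1.5 times.

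Lanosterol demethylase, the cytochrome P450 encoded by cyp51, removes the first methyl group from the closed sterol ring. Its brightest probe set, DrAffx.2.81.A1_at, read 6.88, 7.08, 7.25 and 7.70 in mutants at 48 hpf and 5.70, 5.67, 6.004 and 5.96 in WT at 48 hpf. At 24 hpf it read 6.03, 5.83, 5.71 and 5.61 in mutants and 6.08, 5.82, 5.84 and 5.57 in WT. The mutant arrays at 48 hpf stood well clear of WT, while the 24 hpf groups covered the same range. The log2 difference was 1.395 ± 0.156 at 48 hpf (2.63-fold) and -0.03 ± 0.16 at 24 hpf. This was the probe set with the largest difference relative to its SE among the members.

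The other 3 probe sets annotated as cyp51 did not show this difference. DrAffx.2.81.S1_at, whose name differs from that of the brightest in 1 letter, read 5.05, 4.85, 5.04 and 4.86 in mutants at 48 hpf and 4.92, 5.09, 5.74 and 5.27 in WT at 48 hpf. The groups overlapped, and the log2 difference was -0.31 ± 0.14. The remaining 2 probe sets gave -0.10 ± 0.09 and -0.03 ± 0.08 at 48 hpf. Both lay between 2.72 and 3.16 on all 16 arrays, near the lowest of the 5 foreign-sequence control probe sets, which ranged from 2.77 to 7.22. The result for cyp51 thus rests on 1 of 4 probe sets, and the mean of all 4 gave a log2 difference of 0.24. Which of the 4, the brightest included, target the cyp51 transcript could not be checked without probe sequences.

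Methylsterol monooxygenase, encoded by msmo1, starts the removal of the remaining methyl groups after cyp51. At 24 hpf msmo1 read 3.72, 3.52, 3.39 and 3.74 in mutants, against 3.63, 3.71, 3.46 and 3.51 in WT. At 48 hpf msmo1 read 4.99, 5.50, 6.21 and 7.82 in mutants, against 4.17, 4.37, 4.04 and 4.01 in WT. All 4 mutant arrays at 48 hpf were above every other array, and they were spread widely, with replicate 4 highest. All 24 hpf values of msmo1 and its WT values at 48 hpf lay below 4.66, the median of the foreign-sequence controls, so these levels could not be told from background. The measured log2 difference was 1.98 ± 0.38 at 48 hpf and 0.01 ± 0.38 at 24 hpf. With WT set to the median of the controls, the mutants at 48 hpf were 2.78-fold higher. The controls ranged from 2.77 to 7.22, so this fold is not a lower limit.

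Read against the whole array, 7 of the 10 member probe sets, covering 6 of 6 genes, were called higher in mutants at 48 hpf at a limma adjusted p under 0.05, a call that 8.76% of all probe sets received. None was called lower, as 6.81% of probe sets were. In 7 probe sets all 4 mutant arrays lay above all 4 WT arrays at 48 hpf, which held for 10.6% of probe sets. At 24 hpf 0 member probe sets were called in either direction by limma, with 0 of the 6 genes under an unadjusted p of 0.05, beside 7.35% of all probe sets called, and 0 separated fully upward, beside 7.10%. The members were picked with such results known, so nothing is read from these counts.

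**Figure D2:**
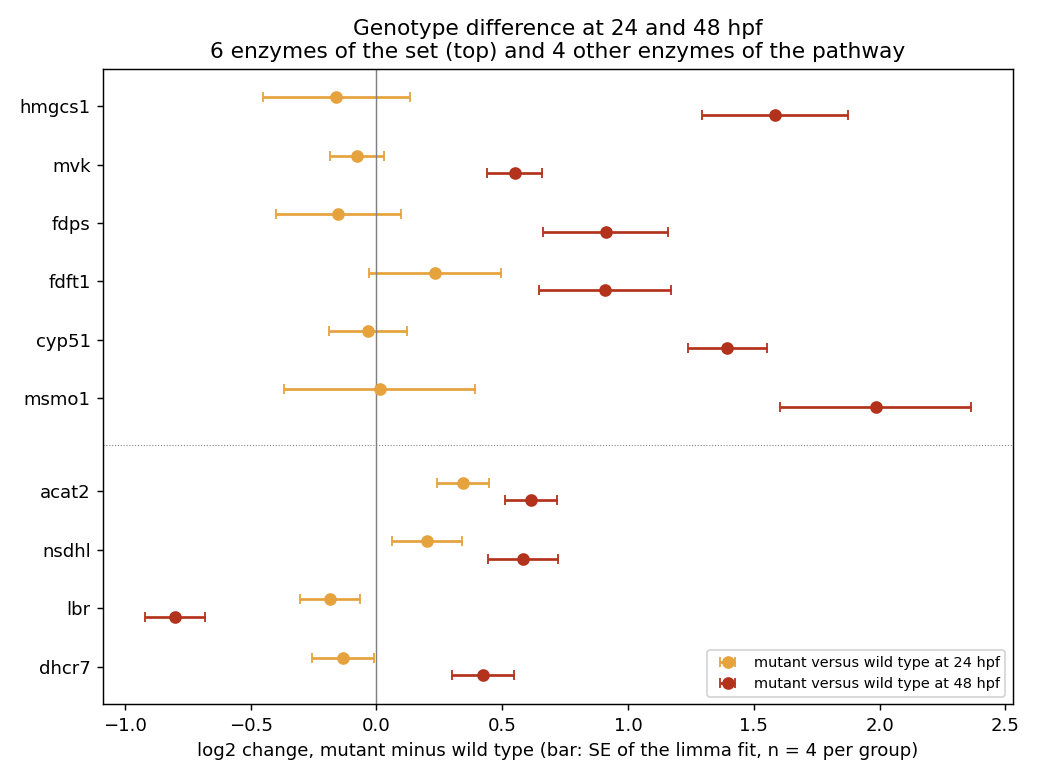
Log2 change of mutants minus WT at 24 and 48 hpf (horizontal axis) for the 6 enzymes of the set and, under the dotted line, 4 other enzymes of the pathway; points are limma estimates and bars the SE (n = 4 per group). The 6 enzymes lie between 0.55 and 1.98 at 48 hpf, and lbr is the 1 enzyme left of 0 at 48 hpf.

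The genotype difference at 48 hpf minus that at 24 hpf was positive for all 6 genes, from 0.63 for mvk to 1.97 for msmo1, with a median of 1.25 beside 0.04 over all genes. Without mutant 48 hpf replicate 4 it was 0.32 for fdft1 and 1.41 for msmo1. The msmo1 value rests on levels below the median of the foreign-sequence controls in 3 of the 4 groups. The difference between genotype effects was 1.74 ± 0.41 for hmgcs1 and 1.43 ± 0.22 for cyp51, the 2 members called for this difference, a call that 0.606% of probe sets received in the upward direction. Leaving out 1 array at a time gave between 1 and 4 called members, beside 0.81% to 1.49% of all probe sets called in either direction. The brightest cyp51 probe set was called in all 16 fits with 1 array left out. hmgcs1 dropped out in 13 of them, remaining called without mutant 48 hpf replicate 1, 2 or 4. With the mean of all probe sets of a gene, the cyp51 value was 0.25 and was not called, beside 2.06% of all genes called. The hmgcs1 call was also lost with cyclic loess and with a pseudocount of 16. Nothing is read from these calls, as the members were picked with such results known. The plot of genotype changes shows the difference between genotype effects as the distance between the points of each gene.

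Over time, mutants and WT differed in how these genes moved. In mutants the measured log2 change of 48 against 24 hpf was 2.54 for msmo1, or 1.48 with the 24 hpf level set to the median of the controls. It was 1.90 for hmgcs1, 1.43 for cyp51, 1.11 for fdft1, 0.35 for fdps and 0.34 for mvk. Of the 6 members, 5 were called higher at 48 hpf, all but fdps, beside 11.0% of probe sets. The mvk call was lost without mutant replicate 2, 3 or 4 at 24 hpf or mutant replicate 3 or 4 at 48 hpf, and fdps moved by 0.14 without mutant 48 hpf replicate 4. In WT the same changes were 0.57, 0.15, 0.01, 0.43, -0.72 and -0.29 for these genes in the same order. There 0 members were called higher at 48 hpf by limma, beside 12.6% of probe sets, and 1, fdps, was called lower, beside 17.7%. That call was lost without WT replicate 1 or 3 at 24 hpf or WT replicate 1, 2 or 3 at 48 hpf, and quantile normalization called mvk in place of fdps. The median change was 1.27 in mutants and 0.08 in WT, against medians over all genes of -0.02 and -0.06. These changes share arrays with the genotype comparisons and add no separate evidence.

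Among the 4 groups the order of the means differed between members below the top group. Mutants at 48 hpf had the highest mean of all groups for each of the 6 genes. For hmgcs1, mutants at 48 hpf averaged 7.81 ± 0.83, and the other groups 5.92 ± 0.26 in mutants at 24 hpf, 6.08 ± 0.17 in WT at 24 hpf and 6.23 ± 0.36 in WT at 48 hpf (SD, n = 4). These 3 lower groups lay within their spread of each other, as did those of cyp51, at 5.79 ± 0.18, 5.83 ± 0.21 and 5.83 ± 0.17 in the same order. For mvk and fdps the lowest mean was that of WT at 48 hpf, with 4.36 ± 0.10 and 6.29 ± 0.13, and the arrays of mutants at 48 hpf overlapped those of mutants at 24 hpf.

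In the called member probe sets the pools of the 48 hpf mutants differed among themselves more than the WT pools of the same age. In all 7 of them the SD among mutants at 48 hpf, between 0.17 and 1.23, was larger than that among WT at 48 hpf, between 0.10 and 0.36. In the uncalled cyp51 probe sets it was 0.16 against 0.06, 0.11 against 0.07 and, for DrAffx.2.81.S1_at, 0.11 in mutants against 0.35 in WT. The share of all probe sets with a larger SD in mutants was not computed. Mutant replicate 4 had the highest value in 6 of these 7, the exception being mvk, which was highest in mutant replicate 3. Averaged over the 6 genes after each was centred on its mean, the level was 0.49, 0.56, 0.91 and 1.79 in mutants at 48 hpf and -0.30, -0.20, -0.47 and -0.17 in WT at 48 hpf. At 24 hpf it was -0.29, -0.30, -0.35 and -0.42 in mutants and -0.23, -0.31, -0.34 and -0.37 in WT. The 4 mutant pools at 48 hpf differed widely, and each was above all 12 other arrays.

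**Figure D3:**
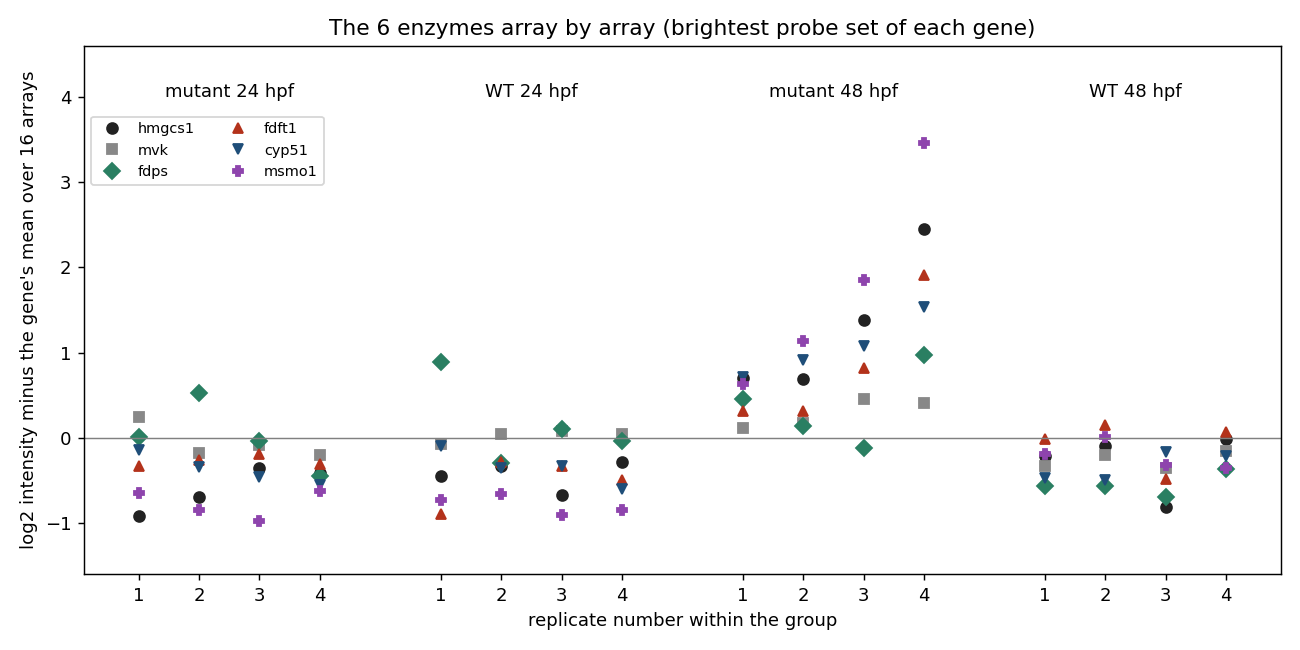
Log2 intensity of each of the 6 genes minus its mean over 16 arrays (vertical axis), array by array, for mutants and WT at 24 hpf and then mutants and WT at 48 hpf. In mutants at 48 hpf replicate 4 is highest for 5 of the 6 genes and replicates 1 and 2 are nearest to WT for most.

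Mutant 48 hpf replicate 4 is also the array least like its group, so the values without it matter. Without it, the 48 hpf differences were 1.42 for msmo1, 1.24 for cyp51, 1.20 for hmgcs1, 0.71 for fdps, 0.55 for fdft1 and 0.51 for mvk, with a median of 0.96. All stayed above 0 and 5 of 6 genes were called, all but fdps, beside 13.9% of all probe sets called in either direction. Nothing is read from this count, as the members were picked with such results known. The call of fdft1 was lost without mutant replicate 3, WT replicate 1 or WT replicate 3 at 48 hpf. It was also lost when only the 2 groups compared were fitted, where 11.9% of all probe sets were called. Leaving out all 3 arrays least like their groups, a choice made after seeing the data, gave 0.41 for fdft1 and 1.03 for hmgcs1.

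Within groups, the members varied together to different degrees. The Pearson correlation of the deviations from group means over the 16 arrays was 0.89 for hmgcs1 and fdft1, 0.86 for fdft1 and msmo1, and 0.85 for hmgcs1 and msmo1. Over the 15 pairs of members the median was 0.46, from -0.07 to 0.89, and 14 pairs were above 0, where the median over all gene pairs was 0.02 and 12.3% of pairs were above 0.46. Without mutant 48 hpf replicate 4 the median fell to 0.32, from -0.45 to 0.69, with 9 pairs above 0 and 23.2% of all gene pairs above 0.32. Much of the shared variation therefore rests on that array, and without it fdps correlated at -0.25 with hmgcs1 and at -0.45 with fdft1. The points of these correlations share arrays and groups, and they are given as a description.

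**Figure D4:**
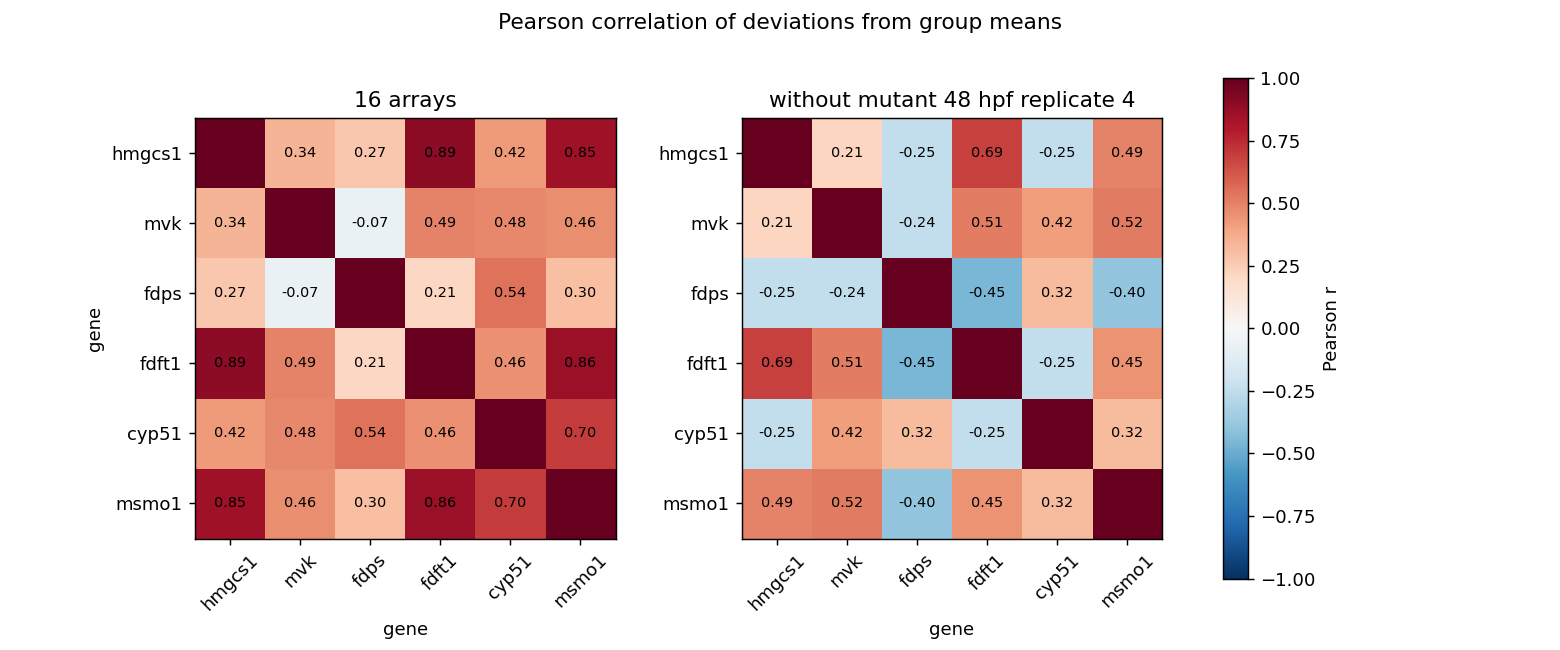
Pearson correlation between members of the deviations from group means, over 16 arrays (left) and without mutant 48 hpf replicate 4 (right); colour and number give r. The block of hmgcs1, fdft1 and msmo1 is the strongest on the left, at 0.85 to 0.89, and weaker on the right.

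Of 18 other sterol synthesis genes listed, 4 were analysed here: acat2, nsdhl, lbr and dhcr7. They were not in the set, but this list and the gene lists below were also chosen with earlier results of these data known. The p-values of the listed genes are therefore given as a description. At 48 hpf 3 of the 4 rose in mutants and 1 fell, beside 8.76% and 6.81% of all probe sets. Their median log2 change was 0.50 at 48 hpf and 0.03 at 24 hpf. Genes such as hmgcra, hmgcrb, idi1, sqlea and lss were not analysed here.

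Acetoacetyl-CoA thiolase, encoded by acat2, supplies the substrate of hmgcs1. At 48 hpf acat2 read 8.25, 8.40, 8.39 and 8.53 in mutants, against 7.61, 7.84, 7.86 and 7.80 in WT. At 24 hpf it read 8.58, 8.70, 8.35 and 8.33 in mutants, against 8.31, 8.01, 8.11 and 8.15 in WT. The genotypes were apart at both times, narrowly at 24 hpf. acat2 rose by 0.61 ± 0.10 in mutants at 48 hpf (limma adjusted p = 0.000588), while the 24 hpf difference of 0.34 ± 0.10 just missed the threshold (limma adjusted p = 0.0517). Unlike the members in mutants, acat2 was not higher at 48 than at 24 hpf in mutants, with a change of -0.10, and it was lower at 48 hpf in WT by 0.37 (limma adjusted p = 0.0121).

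The sterol dehydrogenase encoded by nsdhl acts in the same demethylation steps as msmo1. At 48 hpf nsdhl read 4.33, 4.29, 4.16 and 4.68 in mutants and 3.50, 3.71, 4.14 and 3.77 in WT, so the groups did not overlap, though WT replicate 3 came close. nsdhl was below 4.66, the median of the foreign-sequence controls, on 15 of 16 arrays, so its level could not be told from background. Its measured values rose by 0.58 ± 0.14 at 48 hpf (limma adjusted p = 0.00849), and the 24 hpf difference was 0.20 ± 0.14 (limma adjusted p = 0.486). dhcr7 encodes the reductase of the last step to cholesterol. It read 7.42, 7.52, 7.64 and 7.91 in mutants at 48 hpf and 7.27, 6.96, 7.31 and 7.27 in WT at 48 hpf, again without overlap, and rose by 0.42 ± 0.12 (limma adjusted p = 0.0278). The dhcr7 call was lost without mutant replicate 3, mutant replicate 4 or WT replicate 2 at 48 hpf, with adjusted p up to 0.0979.

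The exception was lbr, the lamin B receptor of the inner nuclear membrane, which carries a sterol reductase domain beside its role in tethering chromatin. lbr read 8.13, 8.04, 8.44 and 8.20 in mutants at 48 hpf and 9.16, 8.96, 9.08 and 8.81 in WT at 48 hpf, without overlap. It fell by 0.80 ± 0.12 (limma adjusted p = 0.000205), and its second probe set by 0.66 ± 0.15 (limma adjusted p = 0.0054). At 24 hpf the brighter lbr probe set averaged 8.85 in mutants and 9.04 in WT, with overlapping arrays. The second averaged 8.56 in mutants and 8.96 in WT, and all 4 mutant arrays lay below all 4 WT arrays. By the brightest probe set of each gene, 0 of the 4 genes were called by limma at 24 hpf, beside 7.35% of all probe sets. Of the 4, 1, acat2, had an unadjusted p under 0.05. For the difference between the genotype effects 0 of 4 were called, beside 225 of all 15502 probe sets, and 2 had an unadjusted p under 0.05. A different response at the later time was therefore not established for these genes.

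Of 8 measured genes of the SREBP machinery, 2 were called higher in mutants at 48 hpf and 0 lower, beside 8.76% and 6.81% of all probe sets. insig1, a sterol-sensing protein that retains SREBP and is itself an SREBP target in mammals, read 7.80, 7.76, 8.16 and 8.51 in mutants at 48 hpf and 7.36, 7.01, 7.31 and 7.53 in WT at 48 hpf. Every mutant array was above every WT array, and replicate 4 was again the highest. insig1 rose by 0.76 ± 0.17 (limma adjusted p = 0.00645). Its other 2 probe sets gave 0.65 ± 0.20 (limma adjusted p = 0.0331) and 0.59 ± 0.26 (limma adjusted p = 0.137). erlin2, which in mammals takes part in the degradation of HMG-CoA reductase, was below 4.66, the median of the foreign-sequence controls, on all 16 arrays, so its level could not be told from background. Its measured values were higher in mutants at both times, by 0.84 ± 0.11 at 48 hpf (limma adjusted p = 7.49e-05) and by 0.58 ± 0.11 at 24 hpf (limma adjusted p = 0.0045). insig2 did not pass, at 0.10 ± 0.09, and srebf1, srebf2 and scap were not analysed here.

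Of 14 measured sterol uptake and transport genes, 2 rose and 2 fell at 48 hpf, beside 8.76% and 6.81% of all probe sets. scarb2a, a lysosomal membrane protein, rose by 1.01 ± 0.22 (limma adjusted p = 0.00521), or by 0.69 without WT replicate 3 at 48 hpf, which was far below the other WT arrays. stard3, a cholesterol transport protein of late endosomes, rose by 0.63 ± 0.12 at 48 hpf (limma adjusted p = 0.00208) and by 0.44 ± 0.12 at 24 hpf (limma adjusted p = 0.0397). The lipoprotein receptor scarb1 fell by 0.76 ± 0.15 (limma adjusted p = 0.0019), and mylipa, whose mammalian counterpart degrades the LDL receptor, fell by 0.39 ± 0.12 (limma adjusted p = 0.0304). The stard3 call at 24 hpf was lost without any 1 of the 4 mutant arrays or WT replicates 2 and 3 at 24 hpf, or WT replicate 1 at 48 hpf (limma adjusted p up to 0.115). The mylipa call was lost without mutant replicate 2, 3 or 4 or WT replicate 1 or 4 at 48 hpf (limma adjusted p up to 0.0888). ldlra was not analysed here.

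In the list for efflux and oxysterols, 2 of 8 rose at 48 hpf and 0 fell, beside 8.76% and 6.81% of all probe sets. These were nr1h3, the liver X receptor that senses oxysterols, by 0.48 ± 0.11 (limma adjusted p = 0.00592), and hsd11b1la, by 0.53 ± 0.16 (limma adjusted p = 0.0313), a call lost without mutant replicate 1 or 2 or WT replicate 1, 2 or 3 at 48 hpf (limma adjusted p up to 0.0918). In fatty acid synthesis 3 of 12 rose and 0 fell, against the same shares: fads2, a desaturase below 4.66 on 3 of 4 WT arrays at 48 hpf, by 0.84 ± 0.21 (limma adjusted p = 0.0125), hacd3, an elongation dehydratase, by 0.77 ± 0.17 (limma adjusted p = 0.00558), and aclya, the ATP citrate lyase that makes cytosolic acetyl-CoA, by 0.63 ± 0.16 (limma adjusted p = 0.0112). Of 14 genes on the isoprenoid branches 1 rose and 0 fell, with 8.76% and 6.81% of all probe sets called: srd5a3, a polyprenol reductase of dolichol synthesis, rose by 0.78 ± 0.13 at 48 hpf (limma adjusted p = 0.000396). pdss1, which makes the ubiquinone side chain from the product of fdps, fell by 0.60 ± 0.15 at 24 hpf (limma adjusted p = 0.0228) and differed by -0.05 ± 0.15 at 48 hpf. Its second probe set, below 4.66 on 13 of 16 arrays, differed by -0.07 ± 0.12 at 24 hpf (limma adjusted p = 0.831). The 24 hpf call of pdss1 was lost without mutant replicate 3 or 4 or WT replicate 1 (limma adjusted p up to 0.0772). fasn was not analysed here.

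The median log2 change at 48 hpf was 0.21 for the SREBP machinery, -0.02 for uptake and transport, 0.09 for efflux and oxysterols, 0.17 for fatty acid synthesis and 0.07 for the isoprenoid branches, against 1.15 for the 6 members and 0.03 over all genes. None of the genes in these 5 lists was called for the difference between the genotype effects by limma. Such calls were rare, at 225 of all 15502 probe sets, so their absence does not set these lists apart. Unadjusted p-values under 0.05 were found for 3 uptake and transport genes, 2 fatty acid genes, 2 isoprenoid genes and 0 of the other lists.

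Markers of several cell types differed at 48 hpf beside the members. Of 8 measured genes of the yolk syncytial layer and liver, sites of sterol and lipoprotein handling, 1 was called, the apolipoprotein apoea, which fell by 1.66 (limma adjusted p = 0.000236). Their summed intensity was 37725 to 41027 in mutants at 48 hpf and 35478 to 41409 in WT at 48 hpf, ranges that overlap. Such a sum adds probe sets that share no scale, so the brightest weigh most in it. Erythroid genes were lower for 3 of 4, with sums of 11301 to 18520 in mutants and 20615 to 22748 in WT. Lens genes were lower for 2 of 2, with sums of 1277 to 1830 in mutants and 5164 to 6598 in WT. Glial genes were lower for 2 of 4, fabp7a and glula, with sums of 1569 to 1694 in mutants and 2313 to 2632 in WT. The other 2 were not called and averaged slightly higher in mutants, gfap at 7.72 against 7.59 and sox2 at 8.79 against 8.68. Of neuron genes 1 of 5 was higher and 1 lower, of epidermis genes 1 of 4 was lower, and of muscle genes 0 of 5 were called. The sums of these 3 lists overlapped between mutants and WT at 48 hpf. They were 1642 to 2478 against 1757 to 2478 for neuron, 23886 to 30824 against 24153 to 29251 for epidermis and 22452 to 39495 against 36971 to 40075 for muscle. Beside these marker counts, 8.76% of all probe sets were called higher in mutants at 48 hpf and 6.81% lower. The part of cell makeup in the members' levels was not tested.

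Genes whose levels followed the members most closely over the 16 arrays were named by their Pearson correlation with the members' mean, among 5141 named genes above the median intensity. They were ctsz at 0.94, stmn4 and sat1a.2 at 0.93, c6.2, clu, mdm2 and lgals2b at about 0.92, and phlda3 at 0.91. Without mutant 48 hpf replicate 4 these correlations lay between 0.81 and 0.92. Once group means were removed the closest genes were mmp9 at 0.94, sh3gl2a at 0.93, dnajc18 at 0.92, dsg2.1 and mmp13a at 0.90, and atp2a1l, sox4a and copg2 at 0.89. Without mutant 48 hpf replicate 4 these fell to between 0.26 and 0.75, with mmp13a lowest. The 2 groups of names shared no gene.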

How the data were processed

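Normalized probe set intensities of 16 arrays, deposited by the authors on a linear scale, were used; per the submitters' processing notes the tools were GCOS, RMA and affy, with versions not given in the sources used here. Array medians lay between 45.9 and 48.4 and no value was at or below 0, so log2 was taken with no pseudocount. Of 15617 probe sets, 115 manufacturer controls were left out, and all 15502 others were tested, dim ones included. The number of arrays limits the precision. Symbols came from the platform annotation, updated through RefSeq, and probe sets with several symbols were not named.

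limma 3.58.1 in R 4.3.3 fitted 4 group means to all 16 arrays, with two-sided tests adjusted by Benjamini-Hochberg over 15502 probe sets and calls at an adjusted p under 0.05. The steps were checked on simulated data. The members and gene lists were chosen with earlier results of these data known. The genes named were the members, the measured other sterol enzymes, a few regulators whatever their values, up to 4 called genes per list with the smallest adjusted p, and the 8 genes nearest the members by each of 2 correlations. insig2 and the marker genes fall outside this rule and were named after their values were seen. Alternatives changed the normalization, pseudocount, filter, prior, array weights, replicate block, probe set rule and arrays used. Same-numbered arrays of the genotypes correlated at 0.43, -0.31, 0.30 and 0.39 at 24 hpf in their deviations from group means, and between -0.16 and 0.05 at 48 hpf. Mutant arrays of the 2 times correlated between 0.04 and 0.40. The numbers were not taken as pairs, but arrays of different numbers were not compared, so these values cannot show whether a number marks a shared batch. Promoter and protein sequences were not used here.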

Additional observations from a re-analysis of the deposited data

Results flagged for a closer look

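The genotype difference at 48 hpf exceeded that at 24 hpf by 1.74 on the log2 scale for hmgcs1 and by 1.43 for the brightest cyp51 probe set. These were the members for which limma called that difference. For cyp51 the call was lost with the mean of all probe sets of a gene, where the value was 0.25. As the members were chosen with these results known, this is a description.

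Among 112 groups of 4 arrays that were screened, 12 held 1 array whose gap to the nearest other, as a share of the group's range, was above Dixon's critical value, and chance alone gives about 1 in 20 groups. Of the members, fdps was concerned with its second probe set, where mutant 48 hpf replicate 4 was high at 6.87 (share 0.864) and WT 24 hpf replicate 1 was high at 6.43 (share 0.844). Mutant 48 hpf replicate 4 was also low for srd5a3 (0.904), and WT 24 hpf replicate 1 was also high for pdss1 (0.881). WT 48 hpf replicate 3 was low for scarb2a (0.901). WT 48 hpf replicate 2 was low for dhcr7 (0.875), and WT 48 hpf replicate 4 was high for hsd11b1la (0.948) and for hacd3 (0.871). Mutant 48 hpf replicate 1 was high for hacd3 (0.869). At 24 hpf mutant replicate 3 was high for the second lbr probe set (0.854) and low for nr1h3 (0.848), and mutant replicate 4 was high for mylipa (0.853).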

How the results depend on the processing

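The median change of the 6 members at 48 hpf lay between 0.84 and 1.298 under the 27 alternatives and kept its direction in all of them. Nothing is read from this, as the members were picked with such results known. Leaving out 1 array at a time moved that median between 0.96 and 1.298. By the same omission it lay between -0.09 and 0.04 at 24 hpf, between 1.06 and 1.34 for the difference between genotype effects, between 1.01 and 1.42 for mutants over time and between 0.01 and 0.14 for WT over time. With the mean of all probe sets of a gene, it was 0.79 for the difference between genotype effects and 0.74 for mutants over time. That setting averages the fdps probe sets, and for cyp51 it averages 1 probe set that was higher in mutants at 48 hpf with 3 that were not. The calls of cyp51 at 48 hpf and for the difference between genotype effects were lost in it. The within-group correlation lay between 0.32 and 0.57 when 1 array was left out, with 0.57 without mutant 24 hpf replicate 1, 0.56 without WT 48 hpf replicate 3, 0.36 without mutant 48 hpf replicate 1 and 0.32 without mutant 48 hpf replicate 4. Of the other sterol enzymes, 1 (acat2) was called at 24 hpf under quantile normalization, a pseudocount of 16, array weights, the mean of all probe sets and without the 3 arrays least like their groups, and 0 to 1 were called with 1 array left out. Array weights called 2 of them for the difference between genotype effects, and cyclic loess called 0 over time in WT. With 1 array left out 3 to 4 were called at 48 hpf, 3 over time in mutants, 1 over time in WT and 0 for the difference. In the same fits 1835 to 2762 of all 15502 probe sets were called at 48 hpf. Over time 2616 to 4050 were called in mutants and 4112 to 4958 in WT. Nothing is read from the counts of these 4 enzymes, as their list was chosen with earlier results known. pdss1 at 48 hpf turned to 0.0777 with the mean of all probe sets, 0.0374 without mutant 48 hpf replicate 2 and 0.0142 without WT 48 hpf replicate 4, within a range of -0.181 to 0.0374 when 1 array was left out. fads2 at 24 hpf turned to -0.0162, -0.0466 and -0.00786 without mutant replicate 1, WT replicate 2 and WT replicate 4 at 24 hpf, within a range of -0.0466 to 0.112. None of these pdss1 and fads2 values passed the threshold, and the cause of the shifts was not tested. Some single-gene calls were lost with 1 array left out: stard3 at 24 hpf in 7 fits (adjusted p up to 0.115), hsd11b1la and mylipa at 48 hpf in 5 each (up to 0.0918 and 0.0888) and pdss1 at 24 hpf in 3 (up to 0.0772). The call of dhcr7 was also lost with cyclic loess, with the 2 compared groups alone and without the 3 arrays, that of fads2 with the 2 compared groups alone, that of mylipa with an intensity trend in the prior and without the 3 arrays, that of stard3 at 24 hpf with the intensity trend, that of pdss1 with the mean of all probe sets and that of aclya without the 3 arrays. Over all probe sets 1139 were called at 24 hpf, 2908 with array weights, 1889 without the 3 arrays and 646 to 1376 with 1 array left out, and 225 were called for the difference, 530 with array weights and 125 to 231 with 1 array left out. With the replicate block the members' median at 48 hpf was 1.15 and 0 other sterol enzymes were called at 24 hpf; the block changed no other call of these enzymes, and the numbers mark no known pairing. Levels below the median of the foreign-sequence controls limit what can be said of msmo1 outside the mutants at 48 hpf, of mvk in WT at 48 hpf and in mutants at 24 hpf, of fads2 outside the mutants at 48 hpf, and of erlin2 and nsdhl in all groups. In WT at 48 hpf the brightest probe sets of hmgcs1, fdps, fdft1 and cyp51 were above that median but inside the range of the controls.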
